A study of Oncorhynchus mykiss with 69 samples.

Results

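The 3 genes described here are socs3, nfkbiab and ccl19a.1, which act at different steps of cytokine signalling in rainbow trout (Oncorhynchus mykiss). They were found by gene symbol among the 35945 genes that appear in at least 1 of 6 fold-change tables, and they had been selected on their methylmercury fold changes in these tables. All 3 were present in each methylmercury table. Under fluoxetine, nfkbiab alone was present in gill, ccl19a.1 alone in liver, and socs3, nfkbiab and ccl19a.1 in gut.

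The study took 3 continuous trout cell lines, RTGill-W1 from gill, RTL-W1 from liver and a line from intestinal epithelium written RTgutCC in the labels, exposed them for 24 h and sequenced their RNA in 69 libraries. In each line the methylmercury groups were a control and 0.25, 2.5, 25, 125 and 250 on the scale of the deposited tables, with 2 libraries each. That scale is 250 times the one in the sample titles, which runs from 0.001 to 1, and neither has a unit. The fluoxetine groups were 2 controls, titled ctrl and H2O, and 1 library at each of 1.6, 4, 8, 20, 40, 100, 200, 500 and 1000 ppb. All cells grew in L-15 medium with serum and antibiotics, and each is 1 continuous line, not an organ. Nothing in the labels says that replicate libraries came from separate cultures, so p-values and errors measure only the spread between these libraries, which may be technical.

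When a cytokine binds its receptor, JAK kinases attached to the receptor phosphorylate STAT proteins, which enter the nucleus and switch on target genes. A second route frees NF-kappa-B from its inhibitor I-kappa-B. Both routes induce their own brakes. In mammals SOCS3 is induced by STAT3 and blocks receptors and JAKs, and I-kappa-B alpha, the counterpart of nfkbiab, is induced by NF-kappa-B and returns it to the cytosol. The chemokine CCL19 draws leukocytes that carry the receptor CCR7. Gill and gut linings meet the water and the food, and their cells are known to make chemokines when injured.

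The gene IDs in the tables are 100272212 for socs3, 110505735 for nfkbiab and 110525193 for ccl19a.1, and RefSeq lists all 3 as protein-coding, with the copy ccl19a.2 beside ccl19a.1. The build behind the tables is not given in the sources used here, so no positions are printed. The tables give 1 value per gene, so exons, introns and UTRs were not told apart.

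Estimated depth averaged 7.74 M to 11.51 M reads per library in the methylmercury pairs and was 1.83 M to 7.67 M per fluoxetine library, with the fluoxetine controls known as a pair mean. The median gene fell with methylmercury, by 0.89, 0.78 and 1.01 log2 units at 250 in gill, liver and gut. Fold changes with methylmercury are therefore given in log2 units relative to the median gene of the same line and concentration, and as deposited where stated. Each ± is the SE of that fold change, recovered from the deposited F statistic, with n = 2 libraries per group. In these bulk libraries fewer cells with a transcript and less of it per cell cannot be told apart.

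With methylmercury socs3, nfkbiab and ccl19a.1 were higher at the 2 highest concentrations in all 3 lines. At 250, socs3 stood highest in gut, at 5.21 ± 0.13, nfkbiab stood at 2.69 to 3.71 and ccl19a.1 at 4.53 to 8.98. In the authors' deposited tables, all 3 genes passed the F-test in gill, in liver and in gut at an adjusted p under 0.05, against 56.8%, 45.8% and 63.4% of all genes. Since these results guided the choice of the genes, nothing is read from that count, and the values below are descriptions. Over 1 log2 unit above the median gene lay 3, 3 and 3 of them at 250 in gill, liver and gut (25.8%, 23.7% and 27% of all genes) and 3, 3 and 2 at 125 (19.2%, 15.6% and 16.7%). Levels of different lines come from tables normalized separately and are set side by side.

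Levels of socs3, the feedback inhibitor of cytokine receptors, are given as RPM, the estimated reads of a gene in 1 M reads of all tabulated genes. In gill the level was 53.2 in the control and 54.3, 56.8, 68.4, 93.9 and 161 at 0.25, 2.5, 25, 125 and 250. In liver it was 25.6 in the control and 29, 27.8, 36.5, 65.2 and 148. In gut it was 39.5 in the control and 39.4, 38.3, 59, 119 and 607. Each line stayed near its control up to 2.5 and was above it from 25 on, and at 250 the gut line stood above both others.

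Relative to the median gene, socs3 stood at 0.47 ± 0.18, 0.59 ± 0.24 and 0.74 ± 0.13 at 25 in gill, liver and gut. At 125 it stood at 1.43 ± 0.18, 1.79 ± 0.24 and 2.15 ± 0.13. At 125 gut exceeded liver by 0.35 ± 0.27 and gill by 0.72 ± 0.23, and at 250 it exceeded liver by 1.80 ± 0.27 and gill by 2.47 ± 0.23. The step from 125 to 250 was 3.06 ± 0.13 in gut, against 1.61 ± 0.24 in liver and 1.31 ± 0.18 in gill. Among the fold changes of all genes at 250, that of socs3 ranked 242nd of 21859 from the top in gut, 632nd of 23203 in liver and 1654th of 22579 in gill.

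Values of nfkbiab, whose product holds NF-kappa-B in the cytosol, showed another shape. In gill its level was 51.6 RPM in the control and 50.8, 50.1, 56.6, 112 and 151 at the rising concentrations. In liver it was 20.4 in the control and 17, 20.3, 23, 39.8 and 78.9. In gut it was 7.55 in the control and 4.75, 6.14, 6.18, 9.82 and 41.4. The gut level was lowest at 0.25, and each line was highest at 250.

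Relative to the median gene, nfkbiab in gut stood at -0.66 ± 0.11 at 0.25, -0.28 ± 0.11 at 2.5 and -0.13 ± 0.11 at 25, the last about the size of its error. These gut values rest on 58.5 reads per library in the control and 37.5, 51.1 and 49.2 at 0.25, 2.5 and 25, with 91.5 at 125. The SE of 0.11 comes from the spread between libraries and may be smaller than counting error at such read numbers, which was not computed. The same holds for the errors of gut differences that use it. In gill nfkbiab stood at 0.24 ± 0.09 at 25, and in liver at -0.26 ± 0.21 at 0.25. At 125 the order of the lines was gill at 1.73 ± 0.09, liver at 1.41 ± 0.21 and gut at 0.93 ± 0.11. At 250 the order was turned, with gut at 3.71 ± 0.11 above liver at 2.82 ± 0.21 and gill at 2.69 ± 0.09. Gut minus gill was -0.80 ± 0.15 at 125 and 1.02 ± 0.15 at 250, whereas liver and gill differed by 0.13 ± 0.23 at 250. From 125 to 250 nfkbiab added 2.78 ± 0.11 in gut, 1.41 ± 0.21 in liver and 0.96 ± 0.09 in gill. As for socs3, the top step was largest in gut.

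**Figure D1:**
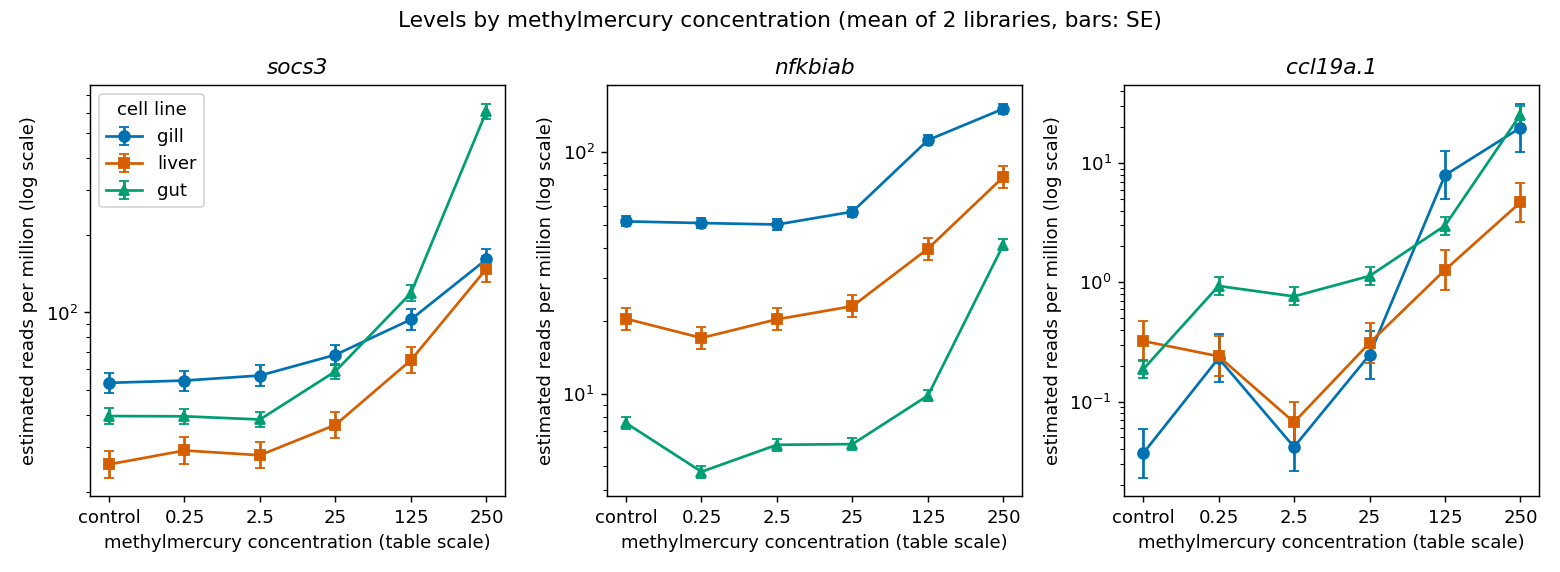
Level in RPM (log scale) of each gene in the control and at 5 methylmercury concentrations on the table scale, for gill, liver and gut. Points are means of 2 libraries and bars the SE of the log2 level; socs3 in gut reached 607 at 250, and nfkbiab in gut lay under its control of 7.55 up to 25.

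Transcripts of the chemokine gene ccl19a.1 were rare in the controls. Its copy ccl19a.2 had no row in the tables used here, and how Salmon divided reads between near-identical copies was not tested, so its values are uncertain. In gill the level was 0.0367 RPM in the control and 0.231, 0.0416, 0.246, 7.91 and 19.8 at the rising concentrations. In liver it was 0.322 in the control and 0.24, 0.0671, 0.31, 1.27 and 4.69. In gut it was 0.186 in the control and 0.932, 0.762, 1.13, 2.99 and 25.5. The levels at 250 rest on 228, 49.2 and 210 estimated reads per library in gill, liver and gut, and those of the controls on 0.366, 3 and 1.44.

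Relative to the median gene, ccl19a.1 stood at 8.98 ± 0.95 in gill, 4.53 ± 0.78 in liver and 7.94 ± 0.36 in gut at 250, and at 7.13 ± 0.95, 2.27 ± 0.78 and 4.16 ± 0.36 at 125. It ranked 8th of 22579 fold changes from the top in gill, 241st of 23203 in liver and 32nd of 21859 in gut at 250. Such fitted values depend on the 0.5 reads added before the logarithm. With 1 read in the gill control pair, which the mean of that pair allows, the ratio of RPM between 250 and control in gill was 396. The pair at 250 was given 456 reads, about the fewest that its mean allows. The exact 95% interval of that ratio, 70.7 to 15661, covers counting error only. Liver minus gill was -4.86 ± 1.23 at 125 and -4.45 ± 1.23 at 250. Gut minus gill was -2.96 ± 1.01 at 125 and -1.04 ± 1.01 at 250, the latter about the size of its error.

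In gut ccl19a.1 lay above its control at every concentration, at 2.0 ± 0.36 already at 0.25, then 1.73 ± 0.36 at 2.5 and 2.41 ± 0.36 at 25. Those 3 values rest on 7.36, 6.34 and 8.95 reads per library and were level with each other. The mean of the gut control pair allows 2.87 to 7 reads in all, a range that the SE does not cover. That of the pair at 0.25 allows about 15 reads or more. Against 0.25 in place of the control, the value at 250 in gut was 5.94. In the fluoxetine experiment the same line had 5.2 RPM of ccl19a.1 in its controls, or 28.4 reads, against 0.186 in the methylmercury controls. The tables were normalized separately, so these levels are set side by side without a test. In gill the values at 0.25, 2.5 and 25 were 1.72, 0.18 and 1.89, each ± 0.95, and they rest on 2.1, 0.366 and 2.37 reads.

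**Figure D2:**
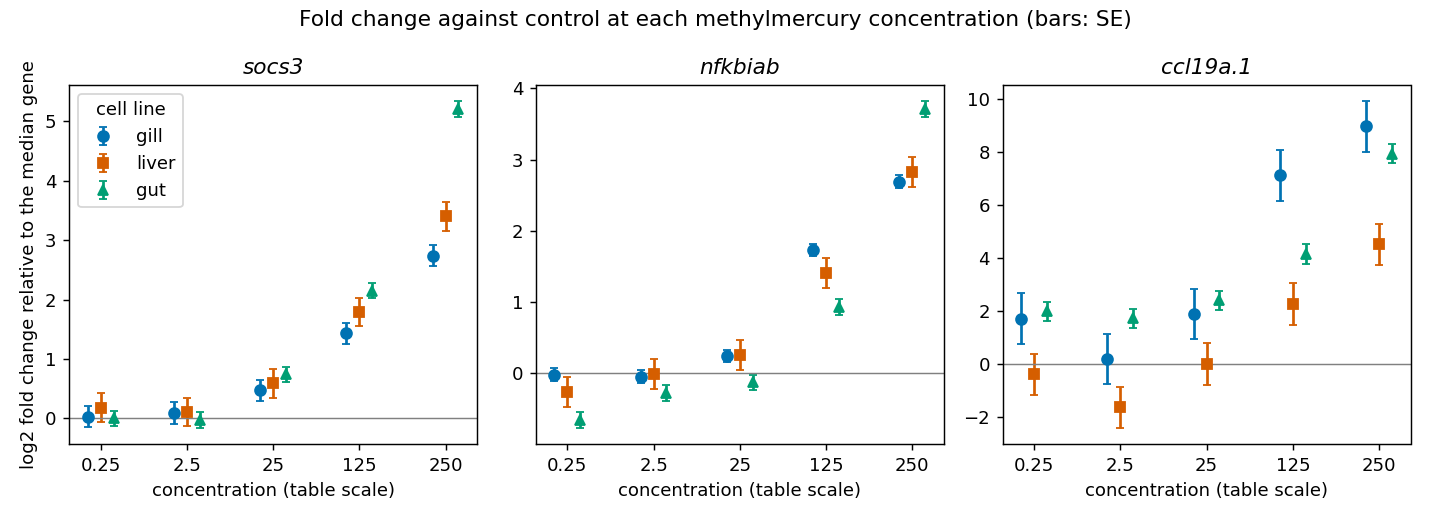
Log2 fold change of each gene relative to the median gene (vertical axis, a scale of its own in each panel) at 5 methylmercury concentrations on the table scale in gill, liver and gut, with bars for the SE. At 250 socs3 in gut stands at 5.21, and nfkbiab in gut goes under the other lines at 125 and over them at 250.

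The authors' benchmark doses, which mark where a model of the response first departs from the control by a defined amount, were deposited for socs3, nfkbiab and ccl19a.1 in gill and liver. In gill the authors' deposited table gives 23.2 for socs3 (bounds 20.7 to 26.4), 11.1 for nfkbiab (5.78 to 15.1) and 16.9 for ccl19a.1 (7.05 to 27.3), where the median of all 4821 accepted genes was 23.1. In liver the authors' deposited table gives 19.7 for socs3 (17.9 to 22), 21.6 for nfkbiab (19.4 to 24.4) and 48.7 for ccl19a.1 (38.7 to 65.6), with a median of 28.2 over 3482 genes. The authors' models differed between the lines for nfkbiab (Hill in gill, linear in liver) and ccl19a.1 (a polynomial in gill, linear in liver), so the doses of the 2 lines are not compared. None of the 3 has a row in the benchmark-dose table of gut or in those of fluoxetine used here. These doses come from the same measurements as the fold changes above and add no independent evidence.

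The genes whose methylmercury pattern was most like that of each member were taken by the root mean square difference over 15 fold changes, 5 concentrations in 3 lines, among 3005 genes that are in all 3 tables and have a symbol other than a LOC number. For socs3 these were chac1, which degrades glutathione, vegf, a vascular growth factor, and csrnp1b, a nuclear protein, at 0.37, 0.37 and 0.39 log2 units, against a median of 2.16 over all candidates. At 250 in gut the values were 4.18 for chac1, 4.34 for vegf and 3.85 for csrnp1b, all under the 5.21 of socs3. For nfkbiab they were the bromodomain gene brdt, plekho1b and atp13a3, at 0.36, 0.37 and 0.37 against a median of 1.77. The nearest to ccl19a.1 were zanl, thbs4a and the Hsp70 chaperone gene hspa1b, at 1.54, 1.6 and 1.68 against a median of 4.33, so none of these candidates came as close to ccl19a.1 as the nearest did to the other members.

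The other genes of the route were counted in 6 lists of 267 symbols. The lists were matched by symbol, so genes known only by a LOC number were not counted. With methylmercury 25 of 46 measured list genes passed the authors' F-test in gill (56.8% of all genes did), 29 of 51 in liver (45.8%) and 34 of 46 in gut (63.4%). Of those that passed, 15, 16 and 20 lay above the median gene at 250 (19.2%, 12.8% and 22.5% of all genes did both) and 10, 13 and 14 below it (37.6%, 32.9% and 40.8%). By the sign of the deposited fold change the split was 11, 12 and 12 up and 14, 17 and 22 down. The shares of all genes by that sign were not counted, so nothing is read from this split. The medians of all measured list genes at 250 were 0.50, 0.68 and 0.40, where that of all genes is 0 by construction. In an F-test on fold changes taken relative to the median gene, 18, 15 and 20 list genes passed, against 27.8%, 19.1% and 40.5% of all genes. Of these, 13, 13 and 15 were higher (13.6%, 12.2% and 18.4% of all genes) and 5, 2 and 5 lower (14.2%, 6.89% and 22%).

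Among the receptors that feed JAK kinases, ifngr1, a chain of the interferon gamma receptor, rose by 3.55 ± 0.32 in gut and 2.33 ± 0.26 in gill (adjusted p = 0.000416 and 0.00714 in the authors' F-test). In liver ifngr1 stood at 3.62 ± 0.78, on 4.62 reads per library in the control and 38.2 at 250, and did not pass that test (adjusted p = 0.0784). For the receptor chain gene il13ra1 the rise was 2.45 ± 0.10 in gill, 2.17 ± 0.14 in liver and 2.55 ± 0.08 in gut. In liver osmr, the receptor for oncostatin M, rose by 3.14 ± 0.48, on 59.5 reads per library at 250 and 10.6 in the control. In gut the IL-6 family cytokine gene m17 rose by 4.96 ± 0.86, on 11.3 reads per library at 250 and 0.361 in the control, so that its size depends on the added 0.5 reads. Of the cytokine and receptor list 8 of 15, 7 of 16 and 12 of 15 genes passed in gill, liver and gut. Of all genes, 56.8%, 45.8% and 63.4% did. Above the median gene lay 5, 4 and 7 of the passing list genes (19.2%, 12.8% and 22.5% of all genes passed and lay above it). With fold changes relative to the median gene 6, 6 and 7 passed (27.8%, 19.1% and 40.5% of all genes). By that test 4, 5 and 6 were higher (13.6%, 12.2% and 18.4% of all genes) and 2, 1 and 1 lower (14.2%, 6.89% and 22%).

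The kinase gene jak1, whose product couples many of these receptors to STATs, rose by 2.06 ± 0.10 in gill, 1.36 ± 0.10 in liver and 2.30 ± 0.08 in gut. Of the JAK and STAT list 1 of 2, 3 of 5 and 3 of 5 genes passed (56.8%, 45.8% and 63.4% of all genes). Of these, 1, 3 and 2 lay above the median gene (19.2%, 12.8% and 22.5% of all genes passed and lay above it). On the scale relative to the median gene 1, 2 and 2 passed, against 27.8%, 19.1% and 40.5% of all genes. Among SOCS genes and other brakes of the route 2 of 6, 3 of 6 and 4 of 7 passed, where 56.8%, 45.8% and 63.4% of all genes did. Of these brakes 1, 1 and 3 were higher than the median gene (19.2%, 12.8% and 22.5% of all genes passed and were higher). As deposited, 0, 0 and 1 were higher, and the share of all genes by that sign was not counted. In gut socs1, a relative of socs3 that also blocks JAKs, rose by 1.64 ± 0.38, on 11 reads per library in the control. The phosphatase gene ptpn11a stood at -0.47 ± 0.09 in gill, -0.70 ± 0.14 in liver and -0.70 ± 0.08 in gut, and the deposited F-test passed in each line, while with fold changes relative to the median gene the liver test gave adjusted p = 0.0564. By that second test 2, 0 and 2 brakes passed in gill, liver and gut, against 27.8%, 19.1% and 40.5% of all genes. Higher were 1, 0 and 1 of them (13.6%, 12.2% and 18.4% of all genes) and lower 1, 0 and 1 (14.2%, 6.89% and 22%).

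In the NF-kappa-B list 9 of 10, 8 of 10 and 7 of 7 genes passed (56.8%, 45.8% and 63.4% of all genes). Of these, 6, 5 and 3 were higher than the median gene (19.2%, 12.8% and 22.5% of all genes passed and were higher). A passing gene can lie above the median gene and still be lower as deposited, as ikbkb in gill was (0.11, or -0.79 as deposited). Taken relative to the median gene, 6, 5 and 3 passed, against 27.8%, 19.1% and 40.5% of all genes. By that second test 5, 4 and 2 were higher (13.6%, 12.2% and 18.4% of all genes) and 1, 1 and 1 lower (14.2%, 6.89% and 22%). The gene of the NF-kappa-B subunit c-Rel, rel, rose by 3.36 ± 0.27 in gill, 3.08 ± 0.16 in liver and 3.40 ± 0.15 in gut, about alike in the 3 lines. The gene bcl3, for an I-kappa-B family protein that acts in the nucleus, rose by 2.42 ± 0.09 in gut and 1.59 ± 0.11 in liver. The adaptor gene traf2b rose by 2.03 ± 0.12 in gill and 2.61 ± 0.17 in liver. Its paralogue traf2a went the other way, at -4.60 ± 0.85 in gill and -1.38 ± 0.46 in gut, where its adjusted p relative to the median gene was 0.0639. In liver traf2a had 0 estimated reads at 250 and 112 reads per library in the control, which is at least 42.1-fold lower with 3 reads per library as the floor.

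Besides ccl19a.1, few of the 44 symbols in the list of chemokines and their receptors had a row. That does not tell how many such genes the cells express. In gill, liver and gut 1 of 3, 2 of 6 and 1 of 4 measured genes of that list passed (56.8%, 45.8% and 63.4% of all genes). With fold changes relative to the median gene 0, 1 and 2 passed, against 27.8%, 19.1% and 40.5% of all genes. In gut cxcl12a, the ligand of CXCR4, rose by 3.03 ± 0.29, and in gill its value was -0.47 ± 0.36, or -1.36 as deposited. In liver cxcl14 rose by 3.87 ± 0.91, on 9.54 reads per library at 250 and 0.618 in the control, so that its size depends on the added 0.5 reads. The other gene that passed there, the receptor gene ccr9a, stood at -0.40 ± 0.23.

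Of the interferon response genes 4 of 10, 6 of 8 and 7 of 8 passed (56.8%, 45.8% and 63.4% of all genes). Of these, 2, 2 and 4 were higher than the median gene (19.2%, 12.8% and 22.5% of all genes passed and were higher). With fold changes relative to the median gene 3, 1 and 4 passed, against 27.8%, 19.1% and 40.5% of all genes. By that test 2, 1 and 2 were higher (13.6%, 12.2% and 18.4% of all genes) and 1, 0 and 2 lower (14.2%, 6.89% and 22%). The immunoproteasome gene psmb9a stood at -0.50 ± 0.20 in gill, -1.76 ± 0.53 in liver and -1.41 ± 0.21 in gut, and on that scale its adjusted p in the F-test was 0.319, 0.185 and 0.00438. In gut gbp and irf8 rose by 2.32 ± 0.34 and 2.84 ± 0.27. They encode a guanylate-binding protein and an interferon regulatory factor. In gill the RNA sensor gene ifih1 rose by 1.64 ± 0.10.

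**Figure D3:**
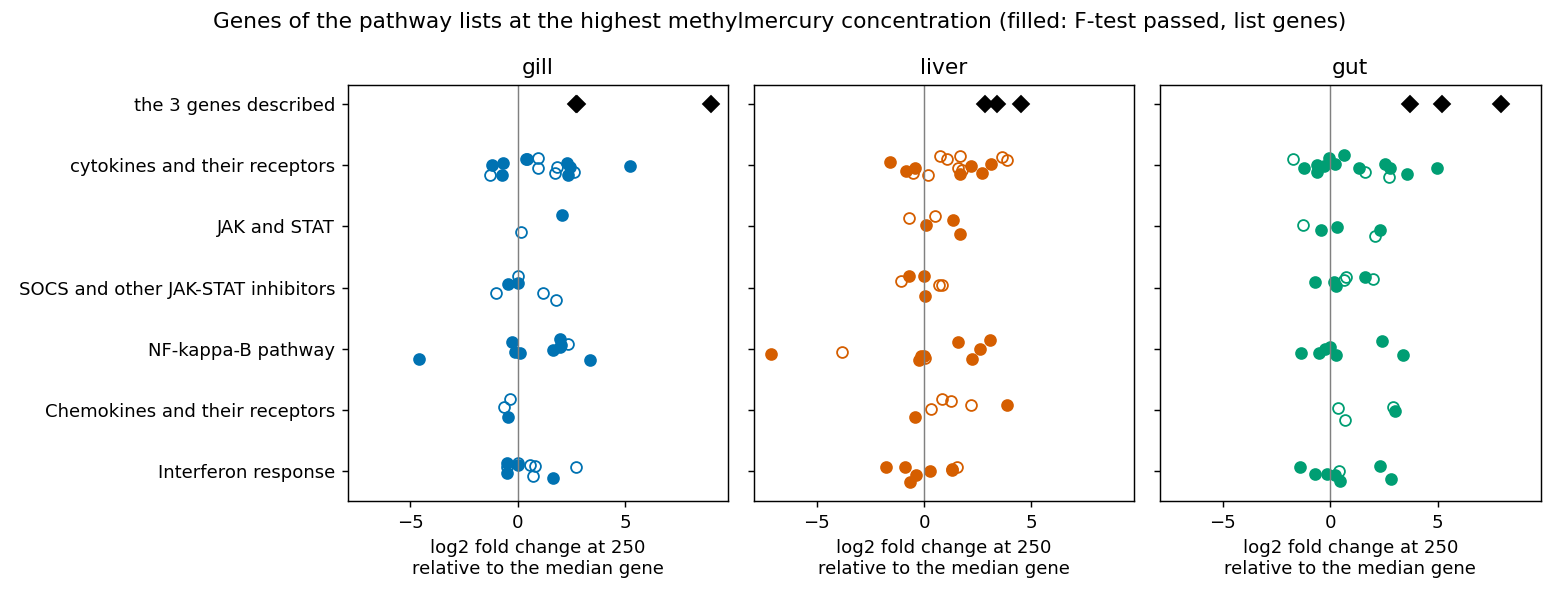
Log2 fold change relative to the median gene (horizontal axis) at methylmercury 250 for each measured gene of 6 pathway lists, in gill, liver and gut; filled circles passed the authors' F-test, and diamonds are socs3, nfkbiab and ccl19a.1, with no test. In each line ccl19a.1 lies farthest to the right of the 3, at 8.98, 4.53 and 7.94.

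Markers of other cell types were looked up, since leukocytes make and answer these signals. The leukocyte list had 1, 4 and 2 measured genes in gill, liver and gut, of 20 listed, with summed levels of 0.228, 2.3 and 0.298 RPM at 250 and 0.144, 5.2 and 0.79 in the control. Over all groups the gill sum ran from 0 to 0.228, the liver sum from 2.3 to 5.2 and the gut sum from 0.298 to 1.19. The pan-leukocyte gene ptprc was at 0 reads at 250 in gut and at 1.16 in the control. In liver 2 of the 4 passed the F-test (45.8% of all genes), cd8a higher and cd79b lower. They rest on 3 and 32 reads per library in the control and 7.79 and 8.37 at 250. Epithelial markers had 2 measured genes in each line, with sums of 6.44, 7.4 and 7.12 at 250 and 1.55, 2.4 and 0.855 in the control. Of them 0 passed the F-test in each line (56.8%, 45.8% and 63.4% of all genes). With fold changes relative to the median gene 1 in gill passed, against 27.8% of all genes. In the gut line, labelled as epithelium, the epithelial symbols cdh1 and epcam had no row. A missing row does not tell whether a gene is expressed. In gill socs3 had no fluoxetine row but 53.2 RPM in the methylmercury control. Copies known only by a LOC number were not counted. In the gut line krt5 had 0.366 reads per library in the control and 6.04 at 250. The other measured marker, tjp3, had 6.26 in the control and 52.6 at 250. Fibroblast and matrix markers summed to 3183, 25881 and 6477 at 250 and 8734, 49019 and 4266 in the control. Of 5 measured in each line, 4, 2 and 4 passed the F-test (56.8%, 45.8% and 63.4% of all genes). With fold changes relative to the median gene 2, 1 and 5 passed (27.8%, 19.1% and 40.5%). By that test 0, 0 and 4 were higher (13.6%, 12.2% and 18.4%) and 2, 1 and 1 lower (14.2%, 6.89% and 22%). In liver the most abundant, col1a2 and col1a1b, stood at 0.03 ± 0.21 and -0.14 ± 0.25 on that scale. In liver the transferrin gene tf, a hepatocyte marker, had 40 RPM at 250 and 164 in the control. The hepatocyte marker fga went the other way in gut, with 73.7 RPM at 250 and 40 in the control. Relative to the median gene tf stood at -1.16 ± 0.22 and fga at 2.15 ± 0.22. No other measured hepatocyte gene passed the F-test, among 2 in gill, 3 in liver and 3 in gut (56.8%, 45.8% and 63.4% of all genes). The part of these markers in the results above was not tested.

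Fluoxetine gives a second look at the same genes in data that did not guide their choice. In the 5 combinations of gene and line that were measured, no member passed either test at an adjusted p under 0.05. The authors' F-test called 0% of all genes in each line, with smallest adjusted p-values of 0.226 in gill, 0.32 in liver and 0.321 in gut, and 11.5%, 10.4% and 10.1% of genes at a raw p under 0.05. A trend over log10 concentration fitted with limma also called 0% of genes, and 5.46%, 6.44% and 6.57% at a raw p under 0.05. By these tests ccl19a.1 in liver was the only member with a raw p under 0.05, in the F-test.

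In gut, where socs3 was highest with methylmercury, its fluoxetine libraries held 140 to 168 RPM, with 141 at 1000 ppb, and the control mean was 148. In the methylmercury experiment the same line had 39.5 RPM of socs3 in its controls and 119 at 125. The tables were normalized separately, so these levels are set side by side without a test. Fold changes of socs3 against the fluoxetine control mean ran from -0.07 at 40 ppb to 0.17 at 200 ppb. The fluoxetine controls themselves lay 0.08 apart. The slope was 0.02 ± 0.03 log2 units per 10-fold concentration (SE, 11 libraries), with a 95% interval of -0.06 to 0.09 and adjusted p = 0.959 in limma. All 9 treated libraries thus lay within a band of 0.24 log2 units.

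The I-kappa-B gene nfkbiab held 80 to 109 RPM in the gill fluoxetine libraries, the highest at 1000 ppb, and its control mean was 94. Its fold changes in gill ran from -0.14 at 100 ppb to 0.28 at 1000 ppb, with controls 0.16 apart. In gut nfkbiab held 12 to 15.8, and its control mean was 14, with fold changes of -0.23 to 0.17 and controls 0.20 apart. The slopes were 0.05 ± 0.04 in gill (95% interval -0.05 to 0.14, adjusted p = 0.936 in limma) and -0.01 ± 0.04 in gut (-0.11 to 0.08, adjusted p = 0.971). The libraries above and below the control mean were 4 and 5 in gill and also 4 and 5 in gut. In the methylmercury controls nfkbiab held 51.6 RPM in gill and 7.55 in gut, from tables normalized separately.

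The chemokine gene ccl19a.1 had the widest range of the members with fluoxetine, on the fewest reads. In liver the libraries at 1.6, 4, 8, 20, 40, 100, 200, 500 and 1000 ppb held 5, 3, 8, 0, 3, 2, 2, 6 and 1 reads, and both controls together 14. The control mean was 1.53 RPM, and on the log2 scale 7 of 9 treated libraries lay below both controls, 1 between them and 1 above. The F-test gave adjusted p = 0.339 from a raw p of 0.0141, and the trend a slope of -0.57 ± 0.28 (95% interval -1.21 to 0.07) with adjusted p = 0.785 in limma. At 1000 ppb the ratio to the control was 0.118, with an exact 95% interval of 0.00279 to 0.775 for counting error. At 20 ppb 0 of 2.41 M reads allows up to 1.25 RPM, and the exact 95% upper limit of its ratio to the control was 1.16. The intervals of the other 7 libraries also included 1, so that at 1000 ppb was the only one of 9 that did not. Its fold changes in liver spanned 3.22 log2 units, from -2.98 at 20 ppb to 0.24 at 8 ppb.

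In gut ccl19a.1 held 3.31 to 6.71 RPM over the fluoxetine libraries, on 17 to 39 reads, and its control mean was 5.2. Its fold changes ran from -0.60 at 20 ppb to 0.36 at 200 ppb, with controls 0.35 apart. The slope was -0.05 ± 0.09 (95% interval -0.25 to 0.16, adjusted p = 0.952 in limma). With methylmercury in the same line its levels were 0.186 to 25.5 RPM. Of the pathway list genes, 0 of 49, 0 of 56 and 0 of 51 changed with fluoxetine in gill, liver and gut by the F-test or by limma's trend. At a raw p under 0.05 there were 1, 3 and 5 by the F-test (11.5%, 10.4% and 10.1% of all genes). By the trend there were 2, 2 and 3 (5.46%, 6.44% and 6.57% of all genes).

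**Figure D4:**
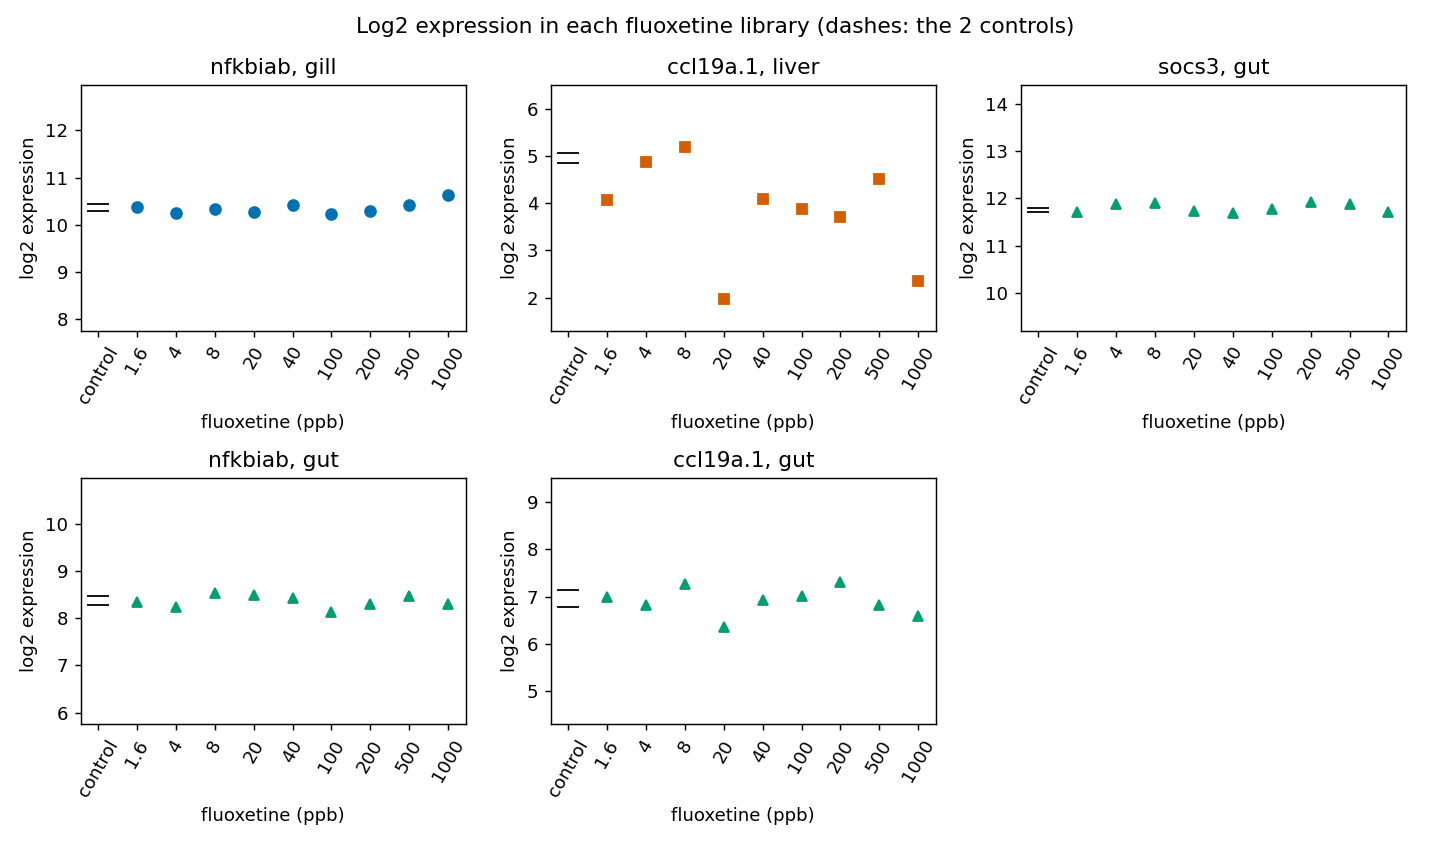
Log2 expression (vertical axis) in the controls (dashes, 2 libraries) and in 1 library at each of 9 fluoxetine concentrations in ppb, for the 5 combinations of gene and line that were measured. The libraries of socs3 in gut lie within 0.24 log2 units of each other, while ccl19a.1 in liver, on 0 to 8 reads, spans 3.22.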

How the data were processed

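RNA was sequenced from 3 trout cell lines. The submitters' processing notes name fastp and Salmon without versions, and the genome build, aligner settings and counting rule are not given in the sources used here. The authors deposited 12 tables. Per the file headers, the fold-change tables hold log2 fold changes against control, the log2 mean expression, an F score with its p-value and adjusted p-value, and the benchmark-dose tables hold log2 control means, benchmark doses with bounds, a residual score and lack-of-fit p-values.

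Group means, the moderated variance and the SE of each fold change were recovered from these columns. For fluoxetine, which of the controls was higher is unknown. For methylmercury single libraries were not recovered. The largest gap between a recovered control mean and the value in the benchmark-dose tables was 9.8e-14, and the lowest value of a library was taken as 0 reads with an offset of 0.5. Estimated reads under 50 in the treated fluoxetine libraries, leaving out values near 0, were compared with whole numbers. In gill, liver and gut 70.8%, 70.4% and 71.3% lay within 0.05 of one, so no count test was run across genes. This share was not computed for the methylmercury pairs. The intervals for ccl19a.1 take its estimated reads rounded to whole reads. All gene IDs matched RefSeq (USDA_OmykA_1.1) symbols, but these include LOC numbers, which name no gene family. No genome sequence was used.

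Fluoxetine trends were fitted with limma 3.58.1 in R 4.3.3 on log10(concentration + 1.6 ppb). Their intervals use 9 residual degrees of freedom. Benjamini-Hochberg adjustment ran over all genes of a table. Recovery and fits were tested on simulated data. The exact intervals of ratios and the floors cover counting error only, while the intervals of slopes measure the spread between libraries.

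A further gene of the selection is not reported here. The members and lists were chosen with earlier results of these data known. List genes were named if among the 3 with the largest absolute fold change at 250 of those passing the F-test in a list and line, and not all of these are printed. Further copies were to be found by gene description, but that was not possible here, so symbols were used. Copies known only by a LOC number would be missed.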

Additional observations from a re-analysis of the deposited data

How the results depend on the processing

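As deposited, without centring, values at 250 in gill, liver and gut were 1.84, 2.63 and 4.19 for socs3, with nfkbiab at 1.80, 2.05 and 2.70 and ccl19a.1 at 6.93 in gut. Relative to the median of the more abundant genes, values moved beyond 1 SD for socs3 in gill (2.93) and gut (5.46) and nfkbiab in gill (2.88) and gut (3.97). Against 0.25 in place of the control, chosen after seeing the data, ccl19a.1 at 250 stood at 7.26 in gill and 5.94 in gut, and nfkbiab at 3.08 in liver and 4.37 in gut. With centred fold changes, 15 of 51 list genes in liver and 20 of 46 in gut passed the F-test, against 19.1% and 40.5% of all genes. At an adjusted p under 0.01, 19 list genes passed in liver, and the share of all genes at that threshold was not counted. With fluoxetine, the slope on the concentration itself, per 1000 ppb, was -0.01 for socs3 in gut and 0.29 for nfkbiab in gill. The latter had a raw p of 0.0247 and adjusted p = 0.614 in limma. Leaving out each library in turn, slopes ran from -0.01 to 0.07 for nfkbiab in gill, -0.78 to -0.37 for ccl19a.1 in liver, 0.00 to 0.04 for socs3, -0.04 to -0.00 for nfkbiab and -0.10 to 0.02 for ccl19a.1 in gut, and without a treated library the smallest adjusted p was 0.602. The slopes of nfkbiab in gill (-0.01) and ccl19a.1 in gut (0.02) changed sign without the 1000 ppb library. The filter on more abundant genes left 2 of the 5 fluoxetine slopes. No fluoxetine call appeared under the alternatives that gave a p. Leaving out a control gave slopes only. The cause of these shifts was not tested. Leaving out single methylmercury libraries was not run, since only pair means were recovered. No paired analysis was possible because the deposited columns carry no replicate numbers. Counts under about 10 reads limit ccl19a.1 in the controls and in liver.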
